A study of Mus musculus with 41 samples.

Results

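Late passages were compared with early passages within 3 wild-type lines of androgenetic haploid embryonic stem cells (AG-haESCs), which are mouse ESCs derived from embryos whose only genome comes from a sperm. A library was called early below passage 30 and late from passage 30 on, by the passage number in its label. This gave 8 of the 13 RNA-seq libraries analysed in a study of 41 samples, 3 of them early and 5 late. The line 2i-14, kept in 2i/L (serum medium with LIF, the MEK inhibitor PD0325901 and the GSK3 inhibitor CHIR99021), was sampled early at p18 and late at p39 and p50. The lines TSa2i-14 and TSa2i-C57 were kept in TSa2i/L, a two-step protocol that ends in serum-free medium with LIF, CHIR99021 and the Src inhibitor CGP77675 in place of the MEK inhibitor. TSa2i-14 was sampled early at p22 and late at p47 and p54, and TSa2i-C57 early at p9 and late at p58. All 3 lines are wild-type and of C57BL/6 background, TSa2i-14 also carries an actin-EGFP transgene, and all had been grown on feeder cells and enriched for haploid cells by sorting. Each line is a single derivation, so late libraries of a line are later passages of the same cells and not further lines, and a single line stands for 2i/L, where medium and line cannot be told apart.

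Mouse ESCs divide without limit in culture, and in 2i-type media they are held in the naive state of the early epiblast by transcription factors such as Nanog, Esrrb and Klf4. With the MEK inhibitor of 2i/L the genome of ESCs loses much of its DNA methylation, and long culture can wear away the parental methylation marks of imprinted loci or let faster-growing variants take over a line. The comparison asks which RNA levels differ between young and old cultures in the same way in every line.

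Levels are given as FPKM, the fragment estimate of a gene scaled to its transcript length and to the size of the library, and differences as late minus early on the log2(FPKM + 1) scale, where the added 1 understates the change of genes with low values. The depth implied by the smallest FPKM values was 12.7 to 19.1 M fragments per library, at which 3 fragments on a 1 kb transcript equal 0.157 to 0.236 FPKM, a limit for counting error only. Between 9533 and 10320 genes reached 1 FPKM per library. The general pluripotency list had a mean log2(FPKM + 1) of 6.08 to 6.76 and the naive list one of 4.88 to 5.24, so markers of the labelled cell type were high at every passage. All genes together had a median difference of 0.20 in TSa2i-C57 p58, against -0.12 to -0.02 in the other 4 late libraries, so a small difference in p58 is to be read against that shift.

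The promoters of 3 genes are shown first, because Cldn6 and Pglyrp1 headed the genes that were lower at late passage in every line and Meg3 is the imprinted transcript among them. They are the 250 bases before the RefSeq transcription start in GRCm38.p6, 5′ to 3′, with capitals marking TGACGTCA, the cAMP response element, which reads the same on both strands.
Cldn6 (chr17:23679115-23679364, plus strand): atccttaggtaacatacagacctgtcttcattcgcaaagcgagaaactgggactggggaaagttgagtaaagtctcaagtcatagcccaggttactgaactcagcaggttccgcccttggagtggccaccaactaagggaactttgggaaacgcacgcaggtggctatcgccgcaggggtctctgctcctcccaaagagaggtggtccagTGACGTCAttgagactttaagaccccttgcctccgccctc
Pglyrp1 (chr7:18884440-18884689, plus strand): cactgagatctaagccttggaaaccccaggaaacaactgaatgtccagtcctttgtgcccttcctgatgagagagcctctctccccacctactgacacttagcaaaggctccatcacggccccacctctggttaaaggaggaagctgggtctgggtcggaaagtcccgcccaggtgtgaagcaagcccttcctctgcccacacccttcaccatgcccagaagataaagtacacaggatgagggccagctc
Meg3, upstream start (chr12:109540746-109540995, plus strand): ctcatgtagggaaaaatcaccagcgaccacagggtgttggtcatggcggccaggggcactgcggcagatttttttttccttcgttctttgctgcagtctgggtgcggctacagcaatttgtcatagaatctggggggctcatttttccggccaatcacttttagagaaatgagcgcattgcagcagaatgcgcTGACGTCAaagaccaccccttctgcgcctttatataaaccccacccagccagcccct
The element began at -40 from the start of Cldn6 and at -57 from that of Meg3, and was not found in Pglyrp1. In windows from 250 bases before to 50 after the start it lay in 3 of the 25 recurring genes with a RefSeq entry, the third being Ufsp2 at -7, and in 4.02% of 7906 tested genes. GGGCGG, the Sp1 core, searched on both strands, was in 13 of the 25 and in 69.6% of the tested genes. These matches describe the letters only.

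Feeder RNA was set apart before the genes were read. AG-haESCs carry an X chromosome and no Y, whereas feeder embryos can be male. The summed FPKM of 4 Y-linked genes was 4.15 for 2i-14 at p39, 2.56 for TSa2i-14 at p54 and 1.56 for TSa2i-C57 at p58. It was 0.288 for TSa2i-14 at p22, and these genes were listed at 0 in the other 4 libraries. The 37 genes of a fibroblast list (collagens, matrix proteins and mesenchymal factors) summed to 236 to 405 FPKM in p39, p54 and p58 and to 50.6 to 119 FPKM in the other 5, where 6 to 13 of the 37 were listed at 0 against 0 to 2 in p39, p54 and p58. Col3a1, which encodes a collagen of connective tissue, was 5.86, 7.24 and 1.50 FPKM in p39, p54 and p58, 0.612 in TSa2i-14 p22 and listed at 0 in p18, p50, p47 and p9. The 3 libraries with the most fibroblast RNA were thus all late, and in TSa2i-C57 the only late library was among them. In bulk RNA, more cells of a type and more RNA per cell cannot be told apart. Genes at least 1 higher both in 2i-14 p39 than in p50 and in TSa2i-14 p54 than in p47 were called fibroblast-linked. There were 75, with Ccl2 (a chemokine), S100a4 and Timp2 (an inhibitor of matrix proteases) among them. Only 11 of the 19 tested genes of the fibroblast list met this rule, so genes outside it are not thereby free of feeder RNA. The 75 genes made up 27.1%, 21.1% and 7.58% of the genes at least 1 higher in p39, p54 and p58 than in the early library of the line, but 0.361% and 0.797% of those in p50 and p47. The values of p39, p50, p47 and p54 follow from how these genes were chosen, and p58 alone took no part in the choice.

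**Figure D1:**
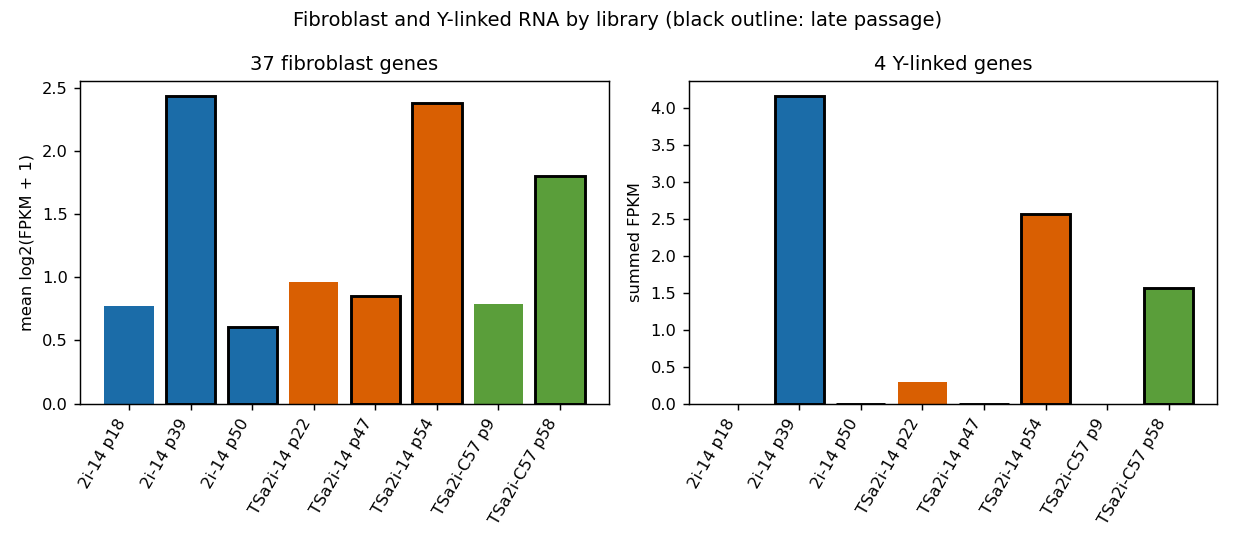
Left, mean log2(FPKM + 1) of 37 fibroblast genes in each of the 8 libraries. Right, summed FPKM of 4 Y-linked genes; colours stand for lines and a black outline marks a late library. Only 2i-14 p39, TSa2i-14 p54 and TSa2i-C57 p58 exceed a mean of 1.5, at 2.43, 2.38 and 1.80, and a Y-linked sum of 1 FPKM.

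No gene passed the test between late and early passages with the line as a block. Of 10387 genes with at least 1 FPKM in at least 3 of the 8 libraries, limma called 0 higher and 0 lower (0.0% each) at a Benjamini-Hochberg adjusted p of 0.05, and 837 (8.06%) had an unadjusted p under 0.05, of which 477 were higher (4.59%) and 360 lower (3.47%). The smallest adjusted p was 0.278. The median absolute difference over all tested genes was 0.24 to 0.37 between a late library and the early one of its line, 0.29 between 2i-14 p39 and p50, and 0.21 between TSa2i-14 p47 and p54. Between the late libraries of a line, 520 genes in 2i-14 and 252 in TSa2i-14 differed by at least 1.

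Changes were then read directly in each line, as genes whose value moved the same way in all 5 late libraries. These counts describe the libraries and rest on no test. In every late library 858 genes were above (8.26%) and 708 below (6.82%) the early library of their line. At least 1 higher in all 5 were 0 genes (0.0%), and at least 1 lower was 1 gene (0.00963%), Cldn6. At a difference of at least 0.5 there were 11 genes higher (0.106%) and 19 lower (0.183%), with 1 of the 11, S100a6, and 0 of the 19 being fibroblast-linked. That rule was met by only 11 of the 19 tested genes of the fibroblast list. With the mean of the fibroblast list as a covariate, the log2 change of App went from 1.33 to 0.71 and that of Saa3 from 2.05 to 1.36. Ufsp2 went from 1.40 to 1.50 and Hist1h3d from 0.87 to 0.98. Among the lower genes, Cldn6 went from -1.72 to -1.42 and Gm364 from -1.58 to -1.84. The libraries with the most fibroblast RNA are all late, so the covariate does not fully separate feeder RNA from passage. The part of feeder RNA in these genes was not tested. The early and the late libraries did not overlap in 6 of the 11 and 9 of the 19, while over all tested genes every late library lay above every early one in 2.69% and below in 2.22%. The 11 and the 19 were chosen on these same values. A difference of at least 0.5 in every late library itself favours a lack of overlap, which is thus no further evidence.

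**Figure D2:**
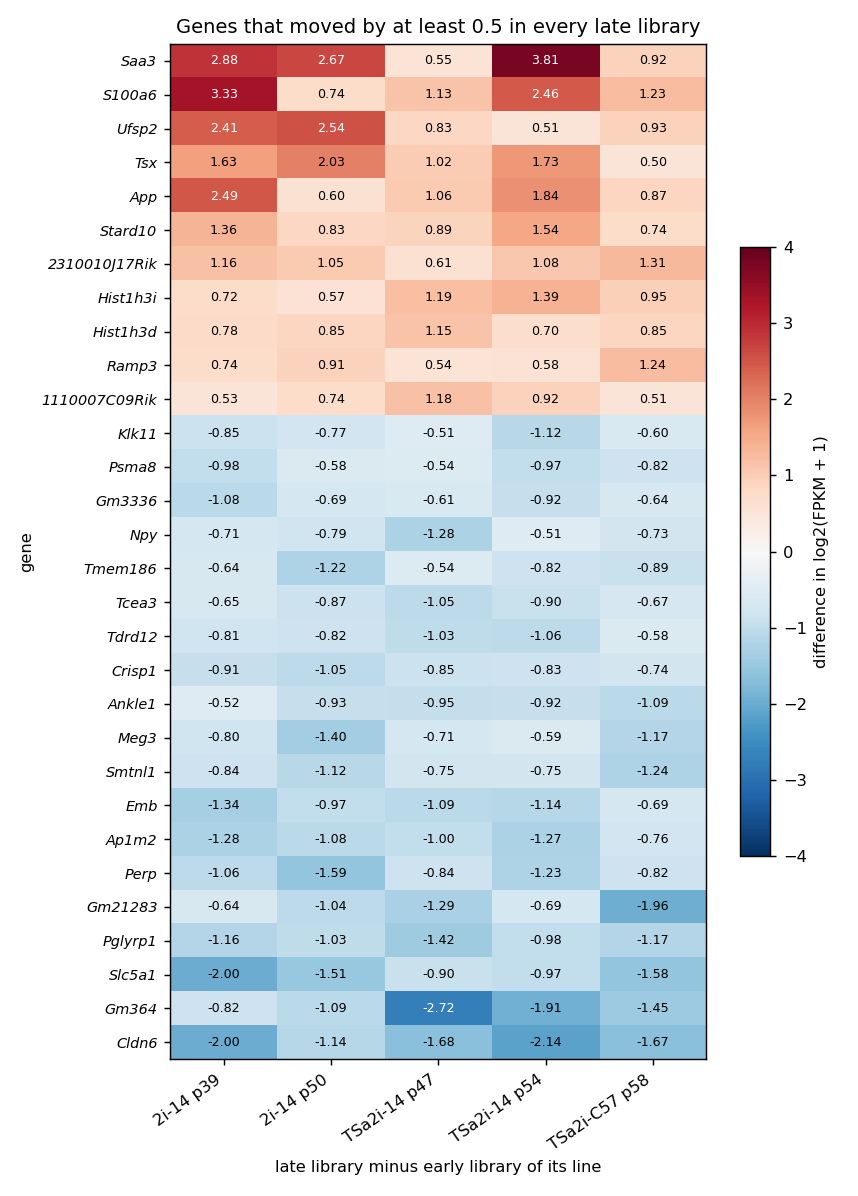
Difference in log2(FPKM + 1) between each late library and the early library of its line, for the 30 genes that differed by at least 0.5 in the same direction in all 5. Red is higher and blue lower at late passage; Cldn6, at the bottom, is the only gene with all 5 values at or beyond 1 in size.

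Cldn6 encodes claudin 6, a tight junction protein of embryonic epithelia and ESCs (chromosome 17 of NCBIM37, 23816332 to 23819413, plus strand). It was 35.6, 37.8 and 25.6 FPKM early, in 2i-14 p18, TSa2i-14 p22 and TSa2i-C57 p9. Late, it was 8.15 and 15.6 FPKM in 2i-14 p39 and p50, 11.1 and 7.81 in TSa2i-14 p47 and p54, and 7.35 in TSa2i-C57 p58. Every late library was thus below every early one, with differences of -1.14 to -2.14 and a log2 change of -1.72 (SE 0.24, limma adjusted p = 0.278). The 3 fibroblast-rich libraries had the 3 lowest values, and in p50 and p47, where fibroblast RNA was present but not raised, the differences were -1.14 and -1.68.

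Of the other 7 tested claudins, Cldn25 was also below early in all 5 late libraries, with differences of -0.07 to -0.50, and the other 6 were not. For example, Cldn4 went from 19.9 to 46.6 FPKM in 2i-14 p50 and from 123 to 60 FPKM in TSa2i-C57 p58. Cldn7, at 5.47 FPKM in 2i-14 p18, was 20.5 in p50, and it was 41.2 in TSa2i-C57 p9 and 18.7 in p58. This family was chosen after its values were seen.

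Perp, a membrane protein of desmosomes and a p53 target, was 31.4, 40.4 and 66.2 FPKM early and 14.6, 9.76, 22.2, 16.6 and 37.0 FPKM in 2i-14 p39 and p50, TSa2i-14 p47 and p54 and TSa2i-C57 p58. Ap1m2, the μ subunit of an epithelial clathrin adaptor, was 11.8, 38.9 and 32.1 FPKM early and, in the same order, 4.28, 5.05, 19.0, 15.5 and 18.5 FPKM late. In both the late values of each line lay below its own early one, while groups overlapped because levels differed between lines. Their log2 changes were -1.08 (SE 0.20) and -1.05 (SE 0.18), with limma adjusted p of 0.417 and 0.400.

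Pglyrp1, a secreted protein that binds bacterial peptidoglycan, was 131, 66.2 and 47.2 FPKM early. It was 57.9 and 63.4 FPKM in 2i-14 p39 and p50, 24.2 and 33.0 in TSa2i-14 p47 and p54 and 20.4 in TSa2i-C57 p58. Its 5 differences lay between -0.98 and -1.42, with a log2 change of -1.15 (SE 0.16, limma adjusted p = 0.278). Slc5a1 encodes SGLT1, a cotransporter of sodium and glucose. It was 4.82, 2.84 and 4.09 FPKM early and 0.460, 1.04, 1.05, 0.968 and 0.703 FPKM late in the order above, without overlap. Emb (embigin, which accompanies monocarboxylate transporters to the membrane) was 99.0, 102 and 74.8 FPKM early and 38.6, 50, 47.6, 45.9 and 46.1 late. Every late value of Emb was thus below every early one, with differences of -0.69 to -1.34 and a log2 change of -1.01 (SE 0.16, limma adjusted p = 0.369).

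Tdrd12, a Tudor protein of the piRNA pathway, was 189, 273 and 176 FPKM early and 107, 106, 133, 131 and 117 FPKM late, again without overlap. Psma8, the spermatogenic α subunit of the proteasome, was 35.8 to 50.5 FPKM early and 17.7 to 34.2 late. Crisp1, a cysteine-rich secretory protein of the epididymis, was 23.3 to 31.1 FPKM early and 10.7 to 18.2 late; it overlaps Crisp3 in the annotation, and the library kit does not keep the strand. The others were Gm364, Smtnl1, Tcea3 (a transcription elongation factor), Gm21283, Gm3336, Tmem186, Ankle1 (a nuclease), Klk11 (a kallikrein protease) and Npy (neuropeptide Y). Gm364, on the X chromosome, had the widest spread, at 179 FPKM in TSa2i-14 p22 against 26.3 in p47 and 38.4 FPKM in 2i-14 p18 against 21.2 in p39.

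Meg3, a maternally expressed long noncoding RNA, is normally held silent by methylation of the IG-DMR on the paternal chromosome (chromosome 12, 110779211 to 110809936, plus strand). It was 6.68, 1.73 and 1.58 FPKM early and 3.43, 1.91, 0.668, 0.808 and 0.147 FPKM late. Each late library was below the early one of its line, by -0.59 to -1.40, while 2i-14 was above TSa2i-14 and TSa2i-C57 at both ages, so the groups overlap. The log2 change was -0.96 (SE 0.20, limma adjusted p = 0.445). Meg3 was the only gene of 9 listed for paternally methylated loci that had enough signal to be tested. H19 and Igf2 were at or under 0.322 FPKM in all early libraries and in 2i-14 p39, 2i-14 p50 and TSa2i-14 p47, and reached 2.88 and 1.43 FPKM in TSa2i-14 p54 and 0.818 and 0.647 in TSa2i-C57 p58, both fibroblast-rich; the part of that RNA was not tested.

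**Figure D3:**
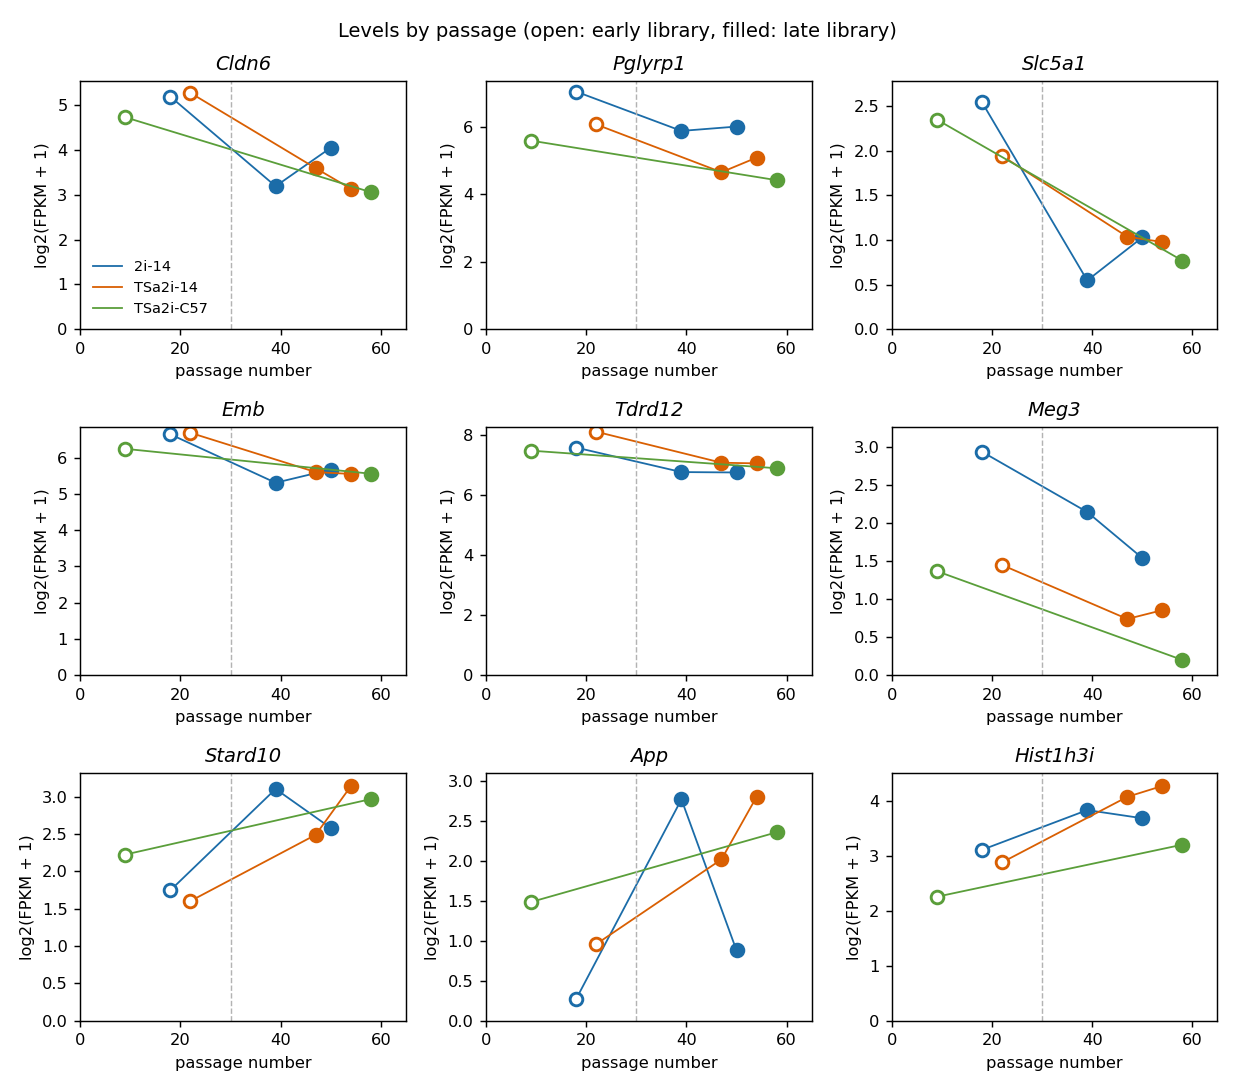
Level, as log2(FPKM + 1), of 9 genes against passage number in the 3 lines; open points are early libraries, filled points late ones, the dashed line marks passage 30 and lines join libraries of 1 line. Cldn6, Pglyrp1, Slc5a1, Emb, Tdrd12 and Meg3 lie lower, and Stard10, App and Hist1h3i higher, in each late library than in the early one of its line.

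Stard10, a lipid transfer protein, ranked first among the 10 higher genes apart from S100a6 by the smallest of its 5 differences, 0.74. It was 2.36, 2.04 and 3.68 FPKM early and 7.60, 4.99, 4.62, 7.81 and 6.83 FPKM late in 2i-14 p39 and p50, TSa2i-14 p47 and p54 and TSa2i-C57 p58, without overlap (log2 change 1.04, SE 0.23, limma adjusted p = 0.445). Its values were highest in p54, p39 and p58, the fibroblast-rich libraries, and 0.83 and 0.89 above early in p50 and p47. App, the amyloid precursor protein, which fibroblasts also express, was 0.210, 0.944 and 1.80 FPKM early and 5.81, 0.840, 3.05, 5.96 and 4.12 FPKM late. Its 3 highest values were again those of p39, p54 and p58, and the differences in p50 and p47 were 0.60 and 1.06. S100a6, a calcium-binding protein of mesenchymal cells, was 17.2, 41.9 and 61.6 FPKM early and 182, 29.4, 93.1, 234 and 146 FPKM late, highest in the same 3 libraries.

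Saa3, an acute phase apolipoprotein, was 6.52, 38.2 and 50.5 FPKM early and 54.4, 46.8, 56.5, 548 and 96.7 FPKM late. TSa2i-14 p54 stood far above the others, and TSa2i-14 p47 was only 0.55 above p22. Ufsp2, a protease that matures the ubiquitin-like protein UFM1, was 5.14, 24.3 and 23.2 FPKM early and 31.6, 34.6, 44.0, 34.9 and 45.1 FPKM late, with the low value of 2i-14 p18 behind its largest differences. Tsx, a transcript of the X-inactivation centre, was 1.42, 3.45 and 8.74 FPKM early and 6.49, 8.88, 8.03, 13.8 and 12.8 late. Ramp3, which modifies the calcitonin receptor family, was 0.524 to 1.08 FPKM early and 1.42 to 2.91 late, and the lincRNA 2310010J17Rik was 0.615 to 2.00 FPKM early and 1.47 to 5.71 late. In TSa2i-C57 p58 the differences of Tsx (0.50), 1110007C09Rik (0.51) and Stard10 (0.74) are read against the shift of 0.20 of all genes there, and with median centring these 3 no longer reached 0.5, nor did Ankle1, Klk11, Npy and Psma8 among the lower genes. With quantile normalization the same 3, Ramp3 and Psma8 did not reach it.

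2 histone H3 genes of chromosome 13 were in the set. Hist1h3i was 7.66, 6.39 and 3.79 FPKM early and 13.3, 11.9, 15.9, 18.4 and 8.24 FPKM late, and Hist1h3d was 2.72 to 4.62 FPKM early and 5.72 to 11.4 late, both without overlap. The 50 tested Hist1h genes, which encode replication-dependent and linker histones, were chosen as a family after these values were seen. Their median difference was 0.86 and 0.65 in 2i-14 p39 and p50, 0.29 and 0.49 in TSa2i-14 p47 and p54, but -0.33 in TSa2i-C57 p58. All tested genes had -0.05, -0.12, -0.02, -0.02 and 0.20 in the same order. Of the 50, 9 were higher in all 5 late libraries and 0 lower, beside 8.26% higher and 6.82% lower over all tested genes. Coding sequences within this cluster are nearly identical and transcripts of most members lack a poly(A) tail, so values of single members are uncertain in libraries of poly(A) RNA.

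The late minus early differences of the lines were at most weakly correlated. Across the 10387 genes, the mean late minus early difference in 2i-14 had a Pearson r of 0.348 (Spearman rho 0.368) with that in TSa2i-14, -0.058 (rho -0.134) with that in TSa2i-C57, and the TSa2i-14 and TSa2i-C57 differences had an r of 0.002 (rho -0.011). These lines share no library, genes are not independent, and each value describes 1 pair of lines. Each line has 1 early library, and noise between libraries lowers r, so a low r cannot show that changes are unshared. Without fibroblast-linked and listed fibroblast genes the 3 values of r were 0.338, -0.116 and -0.035.

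The late libraries without raised fibroblast RNA, 2i-14 p50 and TSa2i-14 p47, shared 41 genes at least 1 higher (0.395%) and 31 at least 1 lower (0.298%) than early. TSa2i-C57 took no part in that choice and was read as the line held out. Of the 41, 21 were higher in p58 than in p9 (51.2%), with a median difference of 0.06, against 65.4% and 0.20 over all tested genes. Of the 31, 10 were lower (32.3%), with a median difference of 0.58, against 34.6% of all tested genes. For the 31 this share was near that of all genes. Large differences in p58 were more frequent than among all genes, in both directions. Of the 31, 4 were at least 1 lower (12.9%, against 1.69% of all tested genes), namely Cldn6, Pglyrp1, Gm364 and Gm21283, and 7 were at least 1 higher (22.6%, against 6.6%). Of the 41, 4 were at least 1 higher (9.76%) and 6 at least 1 lower (14.6%). TSa2i-C57 p58 is a single library with fibroblast RNA, and its early partner is the youngest culture, at p9.

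**Figure D4:**
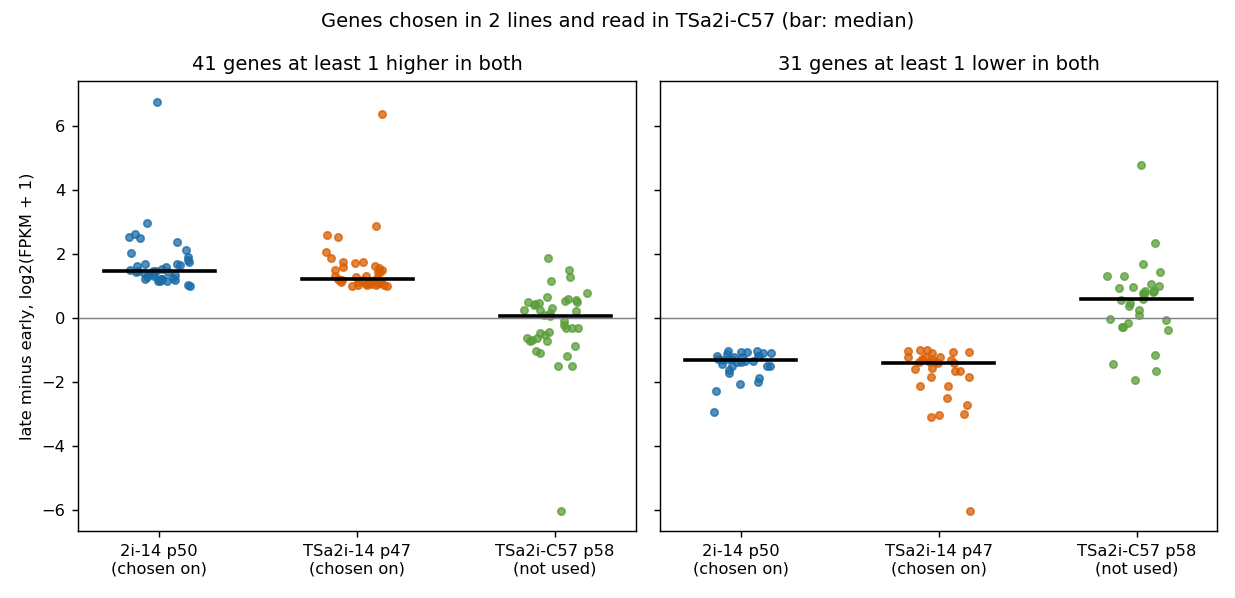
Late minus early difference in log2(FPKM + 1) for the genes at least 1 higher (left, 41) or at least 1 lower (right, 31) in both 2i-14 p50 and TSa2i-14 p47, and for the same genes in TSa2i-C57 p58, which was not used to choose them. Each point is a gene and bars are medians; in p58 the medians are 0.06 and 0.58.

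Lefty1 and Lefty2, secreted inhibitors of Nodal that Nodal itself induces, were among the 31 and are named after their values were seen. Along 2i-14, from p18 through p39 to p50, Lefty1 was 91.2, 14 and 10.9 FPKM, and 27.3, 9.73 and 20.9 FPKM in TSa2i-14 p22, p47 and p54, but 3.77 FPKM in TSa2i-C57 p9 and 22.8 in p58. Lefty2 was 131, 39.4 and 30.2 FPKM, then 34.0, 6.88 and 20, but 9.88 and 33.9 FPKM in TSa2i-C57. TSa2i-C57 thus began low in both genes and was higher late, the opposite order to the other lines.

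In all 4 late libraries of 2i-14 and TSa2i-14, 5 of the 10387 tested genes were at least 1 lower and 7 at least 1 higher. They were chosen on these same values, so their differences in 2i-14 and TSa2i-14 are no further evidence. TSa2i-C57 took no part in the choice. Besides Cldn6, the lower ones were Ccne1, Fgfbp1, Mest and Slc7a3. Ccne1 (cyclin E1, which drives entry into S phase) was 195 FPKM in 2i-14 p18 and 97.0 and 70.5 late, 122 in TSa2i-14 p22 and 48.9 and 59.1 late, but 47.1 in TSa2i-C57 p9 and 81.3 in p58. Mest, an imprinted gene read from the paternal allele, was 34.8, 16.6 and 12.6 FPKM in 2i-14 and 15.7, 1.03 and 2.67 FPKM in TSa2i-14, but 18.2 and 27.7 FPKM in TSa2i-C57. Slc7a3, a transporter of cationic amino acids, was 337, 162 and 118 FPKM, then 298, 113 and 140, and 127 and 150 FPKM in TSa2i-C57. The 7 higher genes were Dap, Fabp5, Pelo, Raet1d, Rpph1, S100a13 and Tsx. Fabp5, a fatty acid carrier, was 8.33, 71.4 and 52.9 FPKM in 2i-14, 30.2, 66.3 and 73.8 in TSa2i-14 and 49.4 and 66.9 in TSa2i-C57, and S100a13 was 35.3, 76.6 and 108 FPKM, then 46.6, 281 and 142, but 296 and 179 FPKM in TSa2i-C57. For Ccne1, Slc7a3 and S100a13 the early level of TSa2i-C57, at p9, was already near the late levels of the other lines or beyond them.

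Whether the late change differs by medium was tested as an interaction of late with 2i/L, which rests on 2i-14 alone for 2i/L and on p18 as its only early library. Of 10387 genes 0 passed (0.0%), with 423 (4.07%) at an unadjusted p under 0.05 and a smallest limma adjusted p of 0.0995. Dppa3, a maternal factor that protects methylation in the zygote, stood at that value. It was 60.8 FPKM in 2i-14 p18 and 283 and 328 in p39 and p50, but 261 in TSa2i-14 p22 and 186 and 187 late, and 265 in TSa2i-C57 p9 and 124 in p58. AA467197, with the same adjusted p, was 34.3, 274 and 363 FPKM in 2i-14 and 144 to 287 FPKM in TSa2i-14 and TSa2i-C57. In both genes 2i-14 p18 was the lowest of the 8 libraries, and the 2i-14 late values lay among or above those of the TSa2i/L lines. Apobec2, a member of the cytidine deaminase family, ran the other way, at 34.8 FPKM in p18, 9.18 and 9.06 in p39 and p50, and 11.9 to 27.1 in TSa2i/L.

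Of the 23 gene lists, 256 genes were tested, of which 0 were called, 0 reached 1 in all 5 late libraries, and 2, Perp and Meg3, reached 0.5. The lists give the following counts of genes on 1 side of early in all 5 late libraries, beside 8.26% higher and 6.82% lower over all genes. Of 19 tested p53 targets, 4 were lower (Perp, Plk2, Btg2 and the cyclin Ccng1) and 1, the death receptor Fas, higher. Fas is also fibroblast-linked, and its highest value, 14 FPKM, was in TSa2i-14 p54. The median difference of the list was -0.48 and -0.40 in 2i-14 p39 and p50, -0.04 and 0.04 in TSa2i-14 p47 and p54, and -0.15 in TSa2i-C57 p58. All genes had -0.05, -0.12, -0.02, -0.02 and 0.20 in the same order. Against these, the list was lower in 2i-14 and in TSa2i-C57 p58, and near them in TSa2i-14. Plk2, a kinase, was 20, 11.1 and 18.8 FPKM early and 9.05, 8.56, 7.84, 8.57 and 7.81 late, with no overlap (log2 change -0.86, SE 0.20, limma adjusted p = 0.498). Of 14 tested glutathione S-transferases, which conjugate glutathione to toxic compounds, 3 were higher (Gsta2, Gsto1 and Gstt1) and 0 lower, with a median log2 change of 0.19. The median difference of this list was 0.05 to 0.36 in the late libraries of 2i-14 and TSa2i-14 and -0.15 in TSa2i-C57 p58, where all genes had 0.20. Gsta2 was 0.300, 0.368 and 0.123 FPKM early and 2.76, 3.76, 0.533, 2.14 and 2.15 late.

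Markers of the pluripotent state gave few differences shared by all lines. Of 15 naive genes 1 was higher, Klf4, and 1 lower, Tcl1, and of 12 general pluripotency genes 1 was higher, Sox2. Klf4 was 15.2, 23.9 and 29.2 FPKM early and 26.1, 21.2, 45.4, 32.1 and 37.3 FPKM late, a log2 change of 0.55 (SE 0.18, limma adjusted p = 0.521). Otx2, a factor of the formative epiblast, was 0.214, 4.57 and 1.25 FPKM early and 1.55, 1.72, 7.38, 5.64 and 13.8 late (log2 change 1.30, SE 0.35, limma adjusted p = 0.509), with TSa2i-C57 p58 highest. The 6 tested formative and primed genes had 1 higher, Otx2, and 1 lower, Cdh2, and their median difference ran from -0.60 in 2i-14 p50 to 1.53 in TSa2i-C57 p58. Of 8 tested trophoblast genes 2 were higher, Eomes and Gata3, both at or under 1.66 FPKM in all libraries. The 2-cell-like list, led by the Zscan4 genes, which mark a rare state of ESCs that resembles the 2-cell embryo, had 0 genes at 1 FPKM in 3 libraries and was not tested. Along 2i-14, Zscan4c was 32.4 FPKM at p18, 0.278 at p39 and 30.1 at p50, then 0.0187 FPKM for TSa2i-14 at p54, 0.0812 for TSa2i-C57 at p58, and listed at 0 in the other 3 libraries. It was thus high at an early and at a late passage of the same line and near 0 between them; the Zscan4 copies are nearly identical, so single members are uncertain.

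Of 14 tested genes for DNA methylation and imprint protection, 3 were higher and 0 lower. Dnmt1, the maintenance methyltransferase, was 10.5, 7.85 and 7.11 FPKM early and 11.6, 10.6, 12.1, 11 and 9.47 late (log2 change 0.31, SE 0.18, limma adjusted p = 0.681), where the difference in p50 was 0.02. Dnmt3a, Dnmt3b, Dnmt3l, Uhrf1 and Zfp57 each had late values both above and below the early one, as did Etv5, a MEK-ERK target. Dusp9, a phosphatase of ERK, differed by -0.01 to 0.72. Dnmt3l, for instance, was 64.1 FPKM in p18 and 27.7 and 27.1 in p39 and p50, but 17.0 in TSa2i-C57 p9 and 30.7 in p58. Of 22 tested genes of maternally methylated loci 5 were higher (Sgce, Ndn, Gnas, Igf2r and Zrsr1) and 0 lower. Sgce, next to Peg10 in its cluster, was 1.47, 7.84 and 9.75 FPKM in 2i-14 and 12.1, 27.1 and 17.5 in TSa2i-14, but 20.8 and 23.0 in TSa2i-C57.

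The median difference of 31 tested cell cycle genes was -0.15 and -0.42 in 2i-14, -0.30 and -0.34 in TSa2i-14 and 0.37 in TSa2i-C57. Of these, Cdk1, Cdk4 and Ccnb1 were lower and Mki67 and Wee1 higher in all 5. The median of 16 interferon-inducible genes was -1.55 in TSa2i-14 p47 and 0.94 in TSa2i-C57 p58, and 0.06, -0.01 and 0.25 in p39, p50 and p54. Glycolysis, ATF4 and amino acid stress and heat shock had 0 genes on 1 side in all 5. Macrophage genes had 0 as well, with 2 of 10 tested. Of 3 tested primitive endoderm genes 2 were higher, Amn and Lamb1, of 14 tested germline genes 2 were higher and 1 lower, and of 14 tested MEK-ERK targets 2 were higher and 1 lower. Wnt targets and cholesterol synthesis had 1 lower gene each and 0 higher.

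Long culture can also change chromosome number, so the median difference was taken over the tested genes of each chromosome. With 227 to 808 genes on each of 20 chromosomes, no median lay more than 0.15 from the median of all genes of its library. The farthest was chromosome 13 in 2i-14 p50, at 0.15 above. The next were within 0.08, such as chromosome 12 in TSa2i-C57 p58, at -0.08. In a bulk library a gain or loss carried by a part of the cells would shift these medians less than one carried by all.

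**Figure D5:**
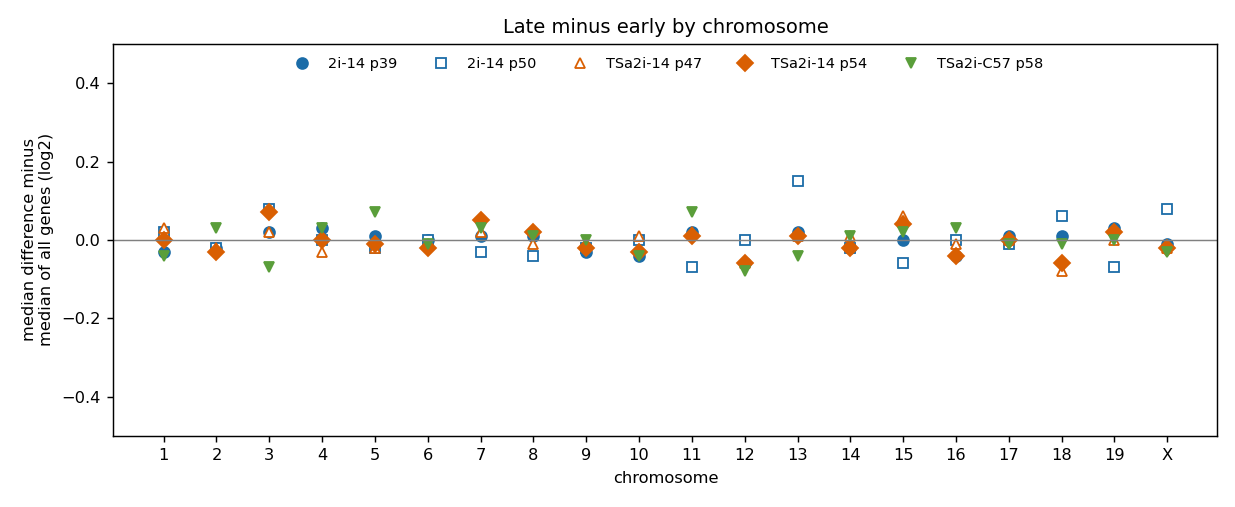
For each chromosome, median late minus early difference in log2(FPKM + 1) over its tested genes, less the median over all tested genes of that library; filled points are the 3 libraries with raised fibroblast RNA. All points lie within 0.15 of 0, the farthest being chromosome 13 in 2i-14 p50.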

How the data were processed

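RNA was measured in 8 libraries, each made from full-length cDNA amplified from a small number of haploid cells. The authors deposited 1 FPKM value per gene row, mapped to mm9 (NCBIM37) with TopHat and quantified with Cufflinks; the submitters' notes name TopHat2 2.0.11, Bowtie2 2.2.2 and Cufflinks 2.2.1, and the gene annotation is not given in the sources used here. Replicates were not pooled. Counts were not used here, so no count model was run. Amplification from few cells adds noise that the 3 line pairs cannot separate from passage.

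The 24525 rows were summed to 24028 symbols. Genes of at least 1 FPKM in at least 3 libraries (10387) were tested on log2(FPKM + 1) with limma 3.58.1 (R 4.3.3), with an intensity trend, line as a block and Benjamini-Hochberg adjustment at 0.05. The test was checked on simulated data. The p-values take passages of a line as replicates, so they measure the spread between these libraries. Recurrence was a difference of at least 1, or 0.5 as an alternative, in all 5 late libraries against the early library of the line; late libraries of 1 line share that early library. Coordinates come from GENCODE vM1, promoters from RefSeq (GRCm38.p6). Depth was estimated on 3737 genes over 1500 bases with 1 annotated transcript. Python 3.11.15, numpy 2.4.6, pandas 2.3.3 and matplotlib 3.10.9 were used. No 2 libraries shared a value above 0.

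Members and gene lists were chosen with earlier results of these data known. Genes were named by rule: the 5 smallest p of each direction where none was called, up to 12 recurring genes of each direction, listed genes that recurred, genes the study follows at its imprints, and Y-linked genes. Recurring genes at 0.5, the genes shared by 2 lines, the interaction genes and the families are named in addition. Alternatives changed the pseudocount, filter, scaling, repeated symbols, trend, block and libraries. The other libraries of the study and its methylation and chromatin samples were not used here.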

Additional observations from a re-analysis of the deposited data

Results flagged for a closer look

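Among 81 measures compared across the 5 late libraries (named genes and list means, on log2(FPKM + 1)), 6 had 1 library far from the rest, and about 4.05 would be so by chance. The distance of that library from its neighbour, divided by the spread of the 5, was 0.947 for Rasgrf1, which was 0.329 FPKM in 2i-14 p50 and at or under 0.0151 FPKM in the other 4. It was 0.851 for Dnmt3a, at 2.03 FPKM in 2i-14 p39 against 0.979 to 1.11 FPKM, and 0.742 for Etv5, at 41.2 FPKM in 2i-14 p39 against 21.5 to 25.5 FPKM. The mean of the naive pluripotency list was lowest in 2i-14 p50, at 4.88 against 5.18 to 5.24, with a ratio of 0.818. The mean over all tested genes was also lowest in 2i-14 p50, at 3.55 against 3.62 to 3.81 in the other late libraries. The mean of the 2-cell-like list was 3.03 in the same library against 0 to 0.27 in the other late ones, with a ratio of 0.910; it was 3.60 in the early library of that line. The mean of the cholesterol synthesis list was highest in 2i-14 p39, at 4.82 against 4.50 to 4.56, with a ratio of 0.822. In all 6 the library apart was one of 2i-14, the only line in 2i/L. No cause was tested.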

How the results depend on the processing

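The count of genes called for late against early passages stayed at 0 except for 1 gene without the 3 fibroblast-rich libraries (Tpm3, listed at 0 in 5 libraries), 1 with the late libraries of a line averaged (Ccl7, above 0 only in the 3 fibroblast-rich libraries), and 0 to 1 over the fits that leave out a library each (Pla2g1b without 2i-14 p18). It was also 0 without the replicate block, where 592 genes had an unadjusted p under 0.05. No numbers in the labels pair these libraries beyond the line. The interaction gave 23 genes without a filter, 3 at a mean FPKM of at least 5, 4 with a fibroblast covariate and 0 to 1 with a library left out (Snora78 without 2i-14 p50, Snhg9 without TSa2i-14 p22); it could not be fitted without 2i-14 p18, the only early library of 2i/L, or without the fibroblast-rich libraries, which leaves no residual degrees of freedom. Dppa3 and AA467197 were among the calls at a mean FPKM of at least 5, with adjusted p of 0.0429 and 0.0465, and with the fibroblast covariate, at 0.0205 each.

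Recurring genes depended more on the settings. Higher by at least 1 in all late libraries were 5 genes with a pseudocount of 0.1, 18 with the mean of the late libraries of each line, 41 without the fibroblast-rich libraries, 11 at 0.5, and 0 to 12 with a library left out. Apart from fibroblast-linked genes these were 4, 2, 41, 10, and 0 to 10. Lower were 3, 2, 31, 19, and 1 to 8. Without 2i-14 p18 there were 12 higher and 3 lower, without TSa2i-14 p22 8 of each, without TSa2i-C57 p9 or p58 7 higher and 5 lower, without TSa2i-14 p47 5 higher, without 2i-14 p39 3 higher and 2 lower, without 2i-14 p50 1 higher and without TSa2i-14 p54 2 lower. Cldn6 was among the lower genes under every setting except quantile normalization at a difference of 1, where Slc5a1 took its place. Cldn6 had been chosen for being at least 1 lower in all 5 late libraries. Settings that leave out or average libraries or lower the limit therefore could not remove it. Rescaling could, and at a difference of 1 median centring kept Cldn6. The 2 settings chosen after seeing the data rescaled the libraries at 0.5. Median centring gave 12 higher (11 apart from fibroblast-linked ones) and 25 lower, which share 8 and 15 with the unscaled sets, and quantile normalization 9 (8) and 27, which share 7 and 18. The other counts stayed within 1.5 times, the farthest chromosome median stayed within 0.15 to 0.16, and 43 named changes kept their direction in all 860 values under alternatives. Of the 43, 30 had been chosen for differing the same way in all 5 late libraries, and the rest for a small p. Changing filter, trend or pseudocount, or leaving out or averaging libraries, could not reverse the 30, so much of this stability follows from the choice. Quantile normalization, the fibroblast covariate and the fit without the replicate block could have reversed them, and did not. The cause of the differences in counts between settings was not tested, beyond fewer libraries meeting a rule more easily. FPKM without counts, 1 early library per line and the depth limit low genes, such as Meg3 at 0.147 FPKM in TSa2i-C57 p58, where 3 fragments on 1 kb equal 0.201.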
